A study of Mus musculus with 18 samples.

Results

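Mouse lung tumours in which p53 had been switched back on were compared with tumours in which it had not, among tumours of the lower grade only. The comparison set 4 treated against 4 untreated grade 2 tumours, which is 8 of the 18 tumours of the study and 4 of its 6 mice. Members were chosen by their labels alone, which give treatment and grade for each tumour. The labels call grade 2 tumours adenomas and grade 3 tumours adenocarcinomas, and every tumour was microdissected from the lung at an age of 10 weeks. The treated group held tumours 8688T8, 8688T9 and 8688T10 of mouse 8688, a female, and tumour 8639T4 of mouse 8639, a male. Untreated tumours were 8700T1 and 8700T3 of mouse 8700 and 8565T3 and 8565T4 of mouse 8565, both males. All 4 mice had the mixed strain background written C57/B6-129SvJae. Treatment was tamoxifen, given into the peritoneum in 2 injections, with collection on day 7 counted from the first. The labels do not say what untreated mice received, nor do they name the alleles. As background, models of this kind carry a p53 gene silenced by a removable stop cassette, and tamoxifen activates the recombinase that removes it. The recombinase acts in every cell that carries it, and the labels do not say which cells those are.

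p53 is a transcription factor that is stabilised by damage or by oncogene signalling through the ARF protein, and that Mdm2 marks for destruction. Its target genes stop the cell cycle (Cdkn1a, which encodes p21), repair DNA, start apoptosis (Fas, Aen) or feed back on p53 itself (Mdm2, Ccng1). p21 keeps the RB family active, which lets repressor complexes settle on the promoters of genes needed for mitosis. Active p53 can thus lower mitotic genes indirectly, and whether it did so in these tumours was not tested. In lung tumours the response to restored p53 has been reported to depend on tumour stage. The question was which genes differed in the adenomas when p53 was restored. The restored gene is not analysed here.

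Signals are log2 values per probe set, with array medians between 6.05 and 6.18 and correlations of 0.983 to 0.995 between the 8 grade 2 arrays. The number of arrays limits their precision. The labelled tissue was borne out by the alveolar type 2 genes, since Sftpc, the gene of surfactant protein C, lay between 12.64 and 13.41. The lung lineage factor gene Nkx2-1 lay below the array median on all 8 arrays and was not tested. Sex genes followed the labels. Xist, the RNA of the inactive X chromosome, was at 11.37, 11.16 and 11.19 in the female mouse 8688 and between 4.33 and 6.08 in the 5 tumours of males. The Y-linked gene Eif2s3y was at 1.82, 1.86 and 2.02 in mouse 8688 and at 11.03 or higher in the 5 tumours of males. RNA integrity was read as the signal near the 3' end minus that near the 5' end, averaged over the control transcripts of beta-actin and Gapdh. It was 1.85 in 8639T4 and between 0.629 and 1.05 in the other grade 2 tumours. No mouse carried both treated and untreated tumours, so treatment and mouse cannot be told apart. Tumours of a mouse are not independent, and p-values over tumours are therefore too small.

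Restoration was followed by few single-gene calls in grade 2 tumours. Of 7300 genes tested, 5 passed at an adjusted p of 0.05 in limma with the mouse as a random block, which is 0.0685% of them. The integrin-binding centromere gene Itgb3bp and the translation inhibitor gene Eif4ebp1 were higher in treated tumours (2 genes, 0.0274%). The adult beta-globin gene Hbb-b2, the guanylate-binding GTPase gene Gbp2b and the interleukin-1 receptor gene Il1r1 were lower (3 genes, 0.0411%). At an unadjusted p under 0.05 there were 510 genes, 276 higher and 234 lower. The 4 treated tumours lay wholly above the 4 untreated tumours for 295 genes (4.04%) and wholly below them for 295 genes (4.04%). Of all genes tested, 3933 (53.9%) had a fitted difference above 0, and the median was 0.02. A fitted difference of at least 1 on the log2 scale, in either direction, was seen for 111 genes (1.52%). Between the untreated mice 8700 and 8565, which differ in no labelled condition, it was seen for 157 genes (2.15%). The median size of a difference was 0.15 for treatment, 0.16 between the untreated mice and 0.24 between the treated mice 8639 and 8688. The treatment values were fitted over 4 against 4 tumours. Those between mice are plain differences of means, of 2 against 2 tumours for 8700 and 8565 and 1 against 3 for 8639 and 8688. Means of fewer tumours vary more, so these sizes and counts are not like for like. Mice 8639 and 8688 also differ in sex.

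Gbp2b had the largest of the 5 differences. Its log2 signal was 2.77, 2.66 and 2.80 in the tumours of mouse 8688, 2.86 in 8639T4, 7.96 and 8.08 in the 8700 tumours and 8.15 and 8.27 in the 8565 tumours. All 4 treated tumours lay near the floor of the array and all 4 untreated tumours well above the median, with little spread inside either group. It fell by 5.02 (SE 0.80, limma adjusted p = 0.0166), and because the treated values lie below the array median the size is not exact. The treated grade 3 tumours of mouse 8688 were as low, at 2.61 ± 0.15 (SD, n = 6), while the untreated grade 3 tumours were spread widely, at 6.004 ± 2.41 (SD, n = 4). Gbp2b exceeded the array median on 7 of 18 arrays, of which 4 were grade 2 arrays. The highest treated grade 3 tumour was at 2.77. Not every untreated grade 3 tumour was therefore above the median, so a low signal was not confined to treated tumours. Gbp2b is induced by interferon in many cells. The related genes Gbp2 and Gbp3 of the interferon list differed by 0.28 and 0.04 and did not pass.

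Hbb-b2, which encodes a beta chain of adult haemoglobin and marks red blood cells, was at 6.51, 7.75 and 7.29 in the tumours of mouse 8688, 7.69 in 8639T4, 10.21 and 10.46 in the 8700 tumours and 10.66 and 10.37 in the 8565 tumours. The highest treated tumour lay far under the lowest untreated tumour. Hbb-b2 fell by 2.998 (SE 0.38, limma adjusted p = 0.00256), and with its 2 probe sets averaged the difference was -1.75 (adjusted p = 0.00369). In tissue RNA, fewer cells of a type and less RNA per cell cannot be told apart. Of the 9 erythroid and platelet genes on the array, Hbb-b2 and the platelet factor gene Pf4 passed the filter on low values, and Pf4 differed by -0.64 (SE 0.37, adjusted p = 0.786). Alas2, the first enzyme of haem synthesis in red cells, was named after its values were seen and was not tested, since it was under the median of each array. It ran from 2.62 to 3.18 in treated and 4.16 to 5.03 in untreated tumours, also without overlap. The alpha-globin gene Hba-a1 lay between 2.16 and 2.46 on every grade 2 array, near the floor, where a split could hardly show. By plain group means 8 of the 9 erythroid and platelet genes were lower in treated tumours and 1 higher, with a median of -0.52. In 3 of the 9 the treated tumours lay wholly below the untreated ones, but 7 of the 9 were under the array median on all 8 arrays. The part of blood content in the fall of Hbb-b2 was not tested.

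Il1r1, the signalling receptor for interleukin-1, was at 8.81, 8.68 and 9.06 in 8688, 8.78 in 8639T4, 10.05 and 10.14 in 8700 and 9.55 and 9.90 in 8565. Every treated tumour was lower than every untreated tumour, and the gene fell by 1.09 (SE 0.18, limma adjusted p = 0.0215). Itgb3bp, which encodes the centromere protein CENP-R, was at 7.85, 7.68 and 7.57 in 8688, 8.15 in 8639T4, 6.53 and 6.50 in 8700 and 6.85 and 6.44 in 8565. It rose by 1.25 (SE 0.17, limma adjusted p = 0.00347), with 8639T4 the highest of the treated tumours. Its other 2 probe sets lay below the array median on all 8 arrays and differed by 0.41 and 0.43 between group means, and their average did not pass the filter. Eif4ebp1, whose product 4E-BP1 holds back cap-dependent translation until mTOR phosphorylates it, was at 9.67, 9.51 and 9.69 in 8688, 9.93 in 8639T4, 8.71 and 8.44 in 8700 and 8.85 and 8.37 in 8565. It rose by 1.12 (SE 0.19, limma adjusted p = 0.022), and this value comes from a probe set whose name marks probes shared with other sequences. The call was lost with shared probe sets left out, at 0.80 (adjusted p = 0.184), and with its probe sets averaged, at 0.80 (adjusted p = 0.0986). None of the 5 genes is among the p53 target or mitosis genes described further on.

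**Figure D1:**
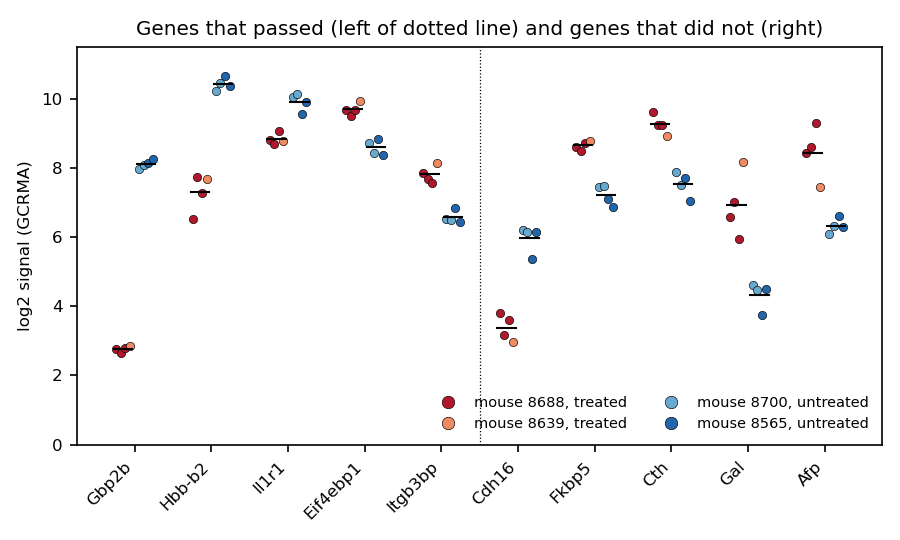
Log2 signal of each grade 2 tumour (points, coloured by mouse) and group means (bars) for the 5 genes that passed, left of the dotted line, and for 5 that did not, right of it. In all 10 genes the treated and untreated tumours do not overlap, and Gbp2b shows the widest gap.

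The calls depended on single tumours and on both untreated mice. Leaving out 1 tumour at a time gave between 2 and 13 genes: 2 without 8700T3 or 8565T4, 3 without 8688T8, and 13 without 8639T4. Hbb-b2 and Itgb3bp passed in each of these 8 fits. Il1r1 was lost without 8688T8, 8688T9, 8700T1, 8700T3 or 8565T4, Eif4ebp1 without 8688T8, 8639T4, 8700T3 or 8565T4, and Gbp2b without 8700T3, 8565T3 or 8565T4. Without mouse 8700 or without mouse 8565, 0 genes passed in limma, while the differences of the 5 genes kept their sign, for example -2.99 and -2.96 for Hbb-b2. With sex as a covariate 2 genes passed, and of the 5 only Itgb3bp was among them (1.55, adjusted p = 0.0115).

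Next come the genes without overlap that had the smallest p in each direction and did not pass. Cdc20, which is among them, is given further on with the mitosis genes. Among those higher in treated tumours, Afp, the fetal liver protein alpha-fetoprotein, was at 8.43, 8.60 and 9.32 in 8688, 7.44 in 8639T4, 6.08 and 6.32 in 8700 and 6.60 and 6.29 in 8565. The treated tumours were all higher, with 8639T4 the lowest of them, and the difference was 2.08 (SE 0.42, adjusted p = 0.0778). Cth, which makes cysteine from cystathionine, differed by 1.66 (SE 0.35, adjusted p = 0.0838), and its signal ran from 8.94 to 9.62 in treated and 7.05 to 7.88 in untreated tumours. Fkbp5, a co-chaperone of steroid receptors that glucocorticoids induce, ran from 8.48 to 8.78 in treated and 6.86 to 7.47 in untreated tumours, a difference of 1.32 (SE 0.29, adjusted p = 0.111). Gal, the gene of the neuropeptide galanin, differed by 2.64 (SE 0.53, adjusted p = 0.0778), with untreated tumours below the array median. The lipid raft protein gene Erlin1 differed by 0.87 (SE 0.17, adjusted p = 0.0778), Larp1b by 0.68 (SE 0.14, adjusted p = 0.0838) and Spryd4 by 0.45 (SE 0.10, adjusted p = 0.145). Ctr9, of the PAF transcription elongation complex, differed by 1.80 (SE 0.40, adjusted p = 0.120), but 8639T4 at 7.50 lay next to the untreated maximum of 7.42, and the other 3 probe sets differed by -0.25 to 0.17 between group means.

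On the lower side, Cdh16, the kidney cadherin gene, was at 3.79, 3.16 and 3.61 in 8688, 2.98 in 8639T4, 6.21 and 6.15 in 8700 and 5.37 and 6.15 in 8565, with a difference of -2.53 (SE 0.49, adjusted p = 0.0667) and treated values under the array median. Fam160b1 differed by -1.82 (SE 0.35, adjusted p = 0.0667) and ran from 5.60 to 6.70 in treated and 7.40 to 8.54 in untreated tumours. The mitochondrial serine carrier family gene Sfxn2 differed by -0.73 (SE 0.15, adjusted p = 0.0838), Tmem242 by -1.35 (SE 0.28, adjusted p = 0.0838), the thromboxane synthase gene Tbxas1 by -0.73 (SE 0.16, adjusted p = 0.114) and the arrestin-family gene Arrdc4 by -0.78 (SE 0.18, adjusted p = 0.146). In each of these genes all treated tumours were lower than all untreated tumours. None passed.

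Among p53 targets of arrest and repair, treated tumours tended to the higher side without a call. Of 21 list genes on the array 16 passed the filter, 13 of them had a difference above 0, and their median was 0.47, beside 0.02 over all genes tested. None passed in either direction, 6 had an unadjusted p under 0.05, and only Cdkn1a had groups that did not overlap. Counted over all 21 genes on the array by plain group means, 17 were higher and 4 lower in treated tumours. The list was drawn up with results of these samples known, so its direction is not independent evidence.

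Cdkn1a was at 11.27, 11 and 11.11 in the tumours of mouse 8688, 11.06 in 8639T4, 10.80 and 10.63 in the 8700 tumours and 9.02 and 8.88 in the 8565 tumours. The treated tumours lay close together, while the untreated tumours separated by mouse. The 8700 tumours reached to just under the treated range and the 8565 tumours lay far below it. The fitted difference was 1.24 (SE 0.44, adjusted p = 0.510), and between the untreated mice it was 1.77. Without mouse 8565 the treatment difference was 0.39, and without mouse 8700 it was 2.01. The second probe set of Cdkn1a differed by 1.43 between group means.

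The same split of the untreated mice was seen in Psrc1, a microtubule-binding p53 target, at 9.30, 7.47 and 9.05 in 8688, 7.01 in 8639T4, 8.05 and 7.97 in 8700 and 3.79 and 3.42 in 8565. The 8700 tumours lay inside the treated range and the 8565 tumours near the array floor, for a fitted difference of 2.41 (SE 1.07, adjusted p = 0.695). Phlda3, which restrains AKT, was at 7.55, 7.07 and 7.17 in 8688, 7.29 in 8639T4, 7.16 and 7.12 in 8700 and 5.44 and 5.86 in 8565, again with the 8700 tumours among the treated ones and a difference of 0.91 (SE 0.39, adjusted p = 0.684). Zmat3, an RNA-binding p53 target, ran the same way, with 9.21 and 9.21 in 8700 and 8.08 and 7.83 in 8565 against 8.75 to 9.51 in treated tumours. Of the 16 arrest and repair genes, 11 were higher in mouse 8700 than in mouse 8565.

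Ccng1, a cyclin that recruits a phosphatase to Mdm2, was at 12.43, 12.34 and 12.20 in 8688, 12.06 in 8639T4, 12.08 and 12.02 in 8700 and 11.62 and 11.24 in 8565 and differed by 0.50 (SE 0.20, adjusted p = 0.641). Its other 2 probe sets differed by 1.20 and 1.38 between group means, the average of its probe sets by 1.03 in the fit, and without mouse 8565 the difference was 0.18. The lowest treated tumour, 8639T4, lay just under the highest untreated tumour. Gadd45a, a stress sensor of arrest and repair, differed by 0.65 (SE 0.23, adjusted p = 0.510), the nucleotide excision repair genes Xpc by 0.47 (SE 0.20, adjusted p = 0.684) and Ercc5 by 0.29 (SE 0.15, adjusted p = 0.750), and the epithelial 14-3-3 gene Sfn by 0.63 (SE 0.38, adjusted p = 0.796). The antiproliferative gene Btg2 lay at the low end of the list with -0.23 (SE 0.23, adjusted p = 0.873).

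**Figure D2:**
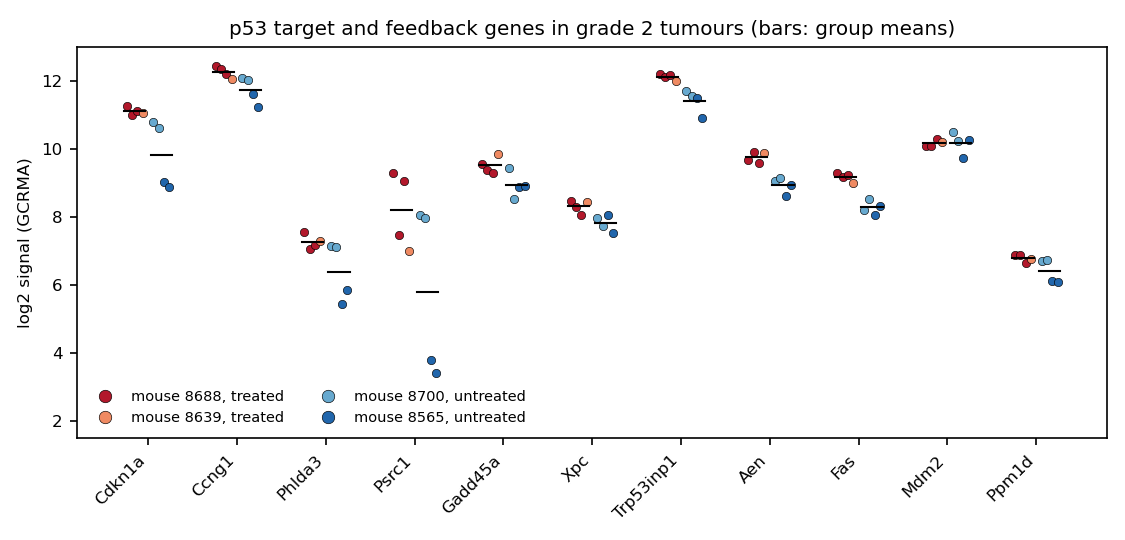
Log2 signal of 11 p53 target and feedback genes in each grade 2 tumour, with points coloured by mouse and bars at the group means. In Cdkn1a, Phlda3 and Psrc1 the untreated tumours of mouse 8700 lie near the treated tumours and those of mouse 8565 lie below. In Trp53inp1, Aen and Fas both untreated mice lie below every treated tumour.

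Of 17 apoptosis targets of p53 on the array, 14 passed the filter, 9 of them above 0 with a median of 0.06, and none passed the test. Aen, an exonuclease induced by p53 that digests DNA in dying cells, was at 9.68, 9.90 and 9.59 in 8688, 9.87 in 8639T4, 9.07 and 9.14 in 8700 and 8.60 and 8.93 in 8565, for a difference of 0.87 (SE 0.23, adjusted p = 0.278). Fas, the death receptor, was at 9.30, 9.19 and 9.23 in 8688, 8.997 in 8639T4, 8.22 and 8.52 in 8700 and 8.05 and 8.33 in 8565, a difference of 0.85 (SE 0.27, adjusted p = 0.446). Trp53inp1, a stress protein that promotes p53 activity, was at 12.19, 12.13 and 12.19 in 8688, 11.999 in 8639T4, 11.72 and 11.56 in 8700 and 11.51 and 10.90 in 8565, a difference of 0.68 (SE 0.19, adjusted p = 0.298). Every treated tumour lay above every untreated tumour in these 3 genes and in the apoptosis regulator gene Siva1, whose difference was smaller, at 0.20 (SE 0.14, adjusted p = 0.832), which makes 4 of the 14 beside 4.04% of all genes tested.

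Other apoptosis targets showed no such separation. Perp, a desmosome protein that mediates p53-dependent death, differed by 0.14 (SE 0.23, adjusted p = 0.912), the BH3-only gene Bid by 0.60 (SE 0.52, adjusted p = 0.849) and the executioner caspase gene Casp6 by -0.27 (SE 0.15, adjusted p = 0.782). The BH3-only gene Bbc3, which encodes PUMA, lay below the filter together with Pidd1 and Tnfrsf10b. With probe sets averaged per gene or without mouse 8565 the median of this list turned, to -0.06 and -0.0030. Of the wider apoptosis machinery, the survival gene Bcl2l1 differed by 0.45 (SE 0.21, adjusted p = 0.711) without overlap, Diablo by 0.25 (SE 0.14, adjusted p = 0.778), and Cflar, an inhibitor of death receptor signalling, by -0.29 (SE 0.15, adjusted p = 0.760), also without overlap.

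Regulators of p53 differed little. Mdm2, the ubiquitin ligase that is also a p53 target, was at 10.09, 10.09 and 10.30 in 8688, 10.19 in 8639T4, 10.49 and 10.23 in 8700 and 9.73 and 10.27 in 8565, with treated tumours inside the untreated range and a difference of -0.01 (SE 0.20, adjusted p = 0.994). Its sign turned in 7 of 22 alternative fits, for example to 0.02 with the arrays centred on their medians. Ppm1d, the phosphatase WIP1 that p53 also induces, differed by 0.35 (SE 0.17, adjusted p = 0.711), with 6.11 and 6.10 in 8565 against 6.71 and 6.74 in 8700. The p53-stabilising deubiquitinase gene Usp7 differed by -0.28 (SE 0.17, adjusted p = 0.797), Bmi1, a repressor of the ARF locus, by 0.29 (SE 0.22, adjusted p = 0.839), and Trp53bp1 by 0.18 (SE 0.21, adjusted p = 0.883). Cdkn2a, which encodes ARF, lay below the array median on all 8 arrays, at 5.14, 4.08 and 4.37 in 8688, 5.83 in 8639T4, 4.44 and 3.71 in 8700 and 4.56 and 4.25 in 8565, and was not tested.

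Genes of mitosis lay lower in the treated adenomas than in the untreated ones, without a call for any single gene. The group holds kinases, spindle and centromere proteins and parts of the anaphase-promoting complex. The part of p53 in their values was not tested. Of 38 list genes on the array all 38 had a lower group mean in treated tumours, with a median of -0.85, and 26 had groups that did not overlap. Of the 38, 15 lay below the array median on all 8 arrays, where differences are not exact. The share without overlap was counted over genes tested only, so 26 of 38 has no share over all genes on the array beside it. The filter left 22, and a member could pass it through the untreated tumours alone. In 10 of them the lower group mean was under the array median. Of these 22, 0 passed in limma, 17 had an unadjusted p under 0.05 and 15 had treated tumours wholly below untreated ones, where 4.04% of all genes tested did. Their median fitted difference was -0.99, beside 0.02 over all genes tested. The same list differed between the untreated mice: 8565 was higher than 8700 in 21 of 22 genes, with a median difference of -0.78. Between the treated mice, 8639T4 lay under the mean of 8688 by a median of 0.56.

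Averaged over the 22 genes, the log2 signal was 6.59, 6.70 and 6.65 in 8688, 5.96 in 8639T4, 6.95 and 7.09 in 8700 and 7.80 and 7.71 in 8565. All treated tumours lay under all untreated tumours, with 8639T4 the lowest of the 8 and the 8700 tumours only slightly above the 8688 tumours. 8639T4 was also the tumour with the largest 3' excess in its RNA, and the part of RNA quality in its low value was not tested. Without mouse 8565 the median difference of the list was -0.67, without mouse 8700 it was -1.31, and without 8639T4 it was -0.73.

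The mitosis gene with the smallest p was Cdc20, which activates the anaphase-promoting complex. Its signal was 6.31, 6.28 and 6.17 in the tumours of mouse 8688, 6.06 in 8639T4, 7.12 and 7.28 in the 8700 tumours and 8.22 and 7.75 in the 8565 tumours. The treated tumours lay close together and the untreated tumours lay clear of the highest of them. The difference was -1.42 (SE 0.33, adjusted p = 0.146), and its other 2 probe sets, both below the array median, differed by -1.11 and -0.70 between group means. Anln, the actin-binding protein of the cytokinetic ring, was at 6.32, 6.20 and 6.12 in 8688, 5.80 in 8639T4, 6.58 and 6.48 in 8700 and 7.33 and 7.24 in 8565, a difference of -0.87 (SE 0.22, adjusted p = 0.264). The survivin gene Birc5, of the chromosomal passenger complex, was at 8.47, 8.63 and 8.73 in 8688, 7.43 in 8639T4, 8.93 and 9.08 in 8700 and 9.84 and 9.73 in 8565, a difference of -1.17 (SE 0.38, adjusted p = 0.446).

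Prc1, which bundles microtubules of the central spindle, was at 7.13, 7.23 and 7.29 in 8688, 6.34 in 8639T4, 7.80 and 7.79 in 8700 and 8.72 and 8.68 in 8565, a difference of -1.25 (SE 0.41, adjusted p = 0.446). Both untreated mice lay above all treated tumours, with 8639T4 the lowest. Cdk1, the kinase that drives entry into mitosis, was at 5.79, 5.92 and 5.67 in 8688, 4.78 in 8639T4, 6.26 and 6.53 in 8700 and 7.30 and 7.11 in 8565, a difference of -1.28 (SE 0.44, adjusted p = 0.487). Mki67, the proliferation marker Ki-67, was at 7.94, 8.20 and 7.87 in 8688, 6.80 in 8639T4, 8.12 and 8.32 in 8700 and 9.02 and 9.17 in 8565, and here 8688T9 overlapped 8700T1, for a difference of -1.01 (SE 0.39, adjusted p = 0.589) that was -0.62 without 8639T4. The spindle genes Nusap1 with -1.40 (SE 0.43, adjusted p = 0.446) and Bub1b, a spindle checkpoint kinase, with -0.60 (SE 0.20, adjusted p = 0.446), the cyclin gene Ccnb2 with -0.98 (SE 0.32, adjusted p = 0.446) and Cdca3 with -1.001 (SE 0.33, adjusted p = 0.446) went the same way.

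At the ends of the list stood Ube2c, the ubiquitin-conjugating partner of the anaphase-promoting complex, with -1.45 (SE 0.58, adjusted p = 0.649), and securin, Pttg1, with -0.13 (SE 0.27, adjusted p = 0.930). Pttg1 differed from the rest of the list in 8639T4, where at 10.17 it was the highest of the 8 tumours. Plk1, the polo-like kinase, lay below the array median on all 8 arrays, at 3.63 to 3.71 in treated and 4.02 to 4.72 in untreated tumours, and was not tested.

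**Figure D3:**
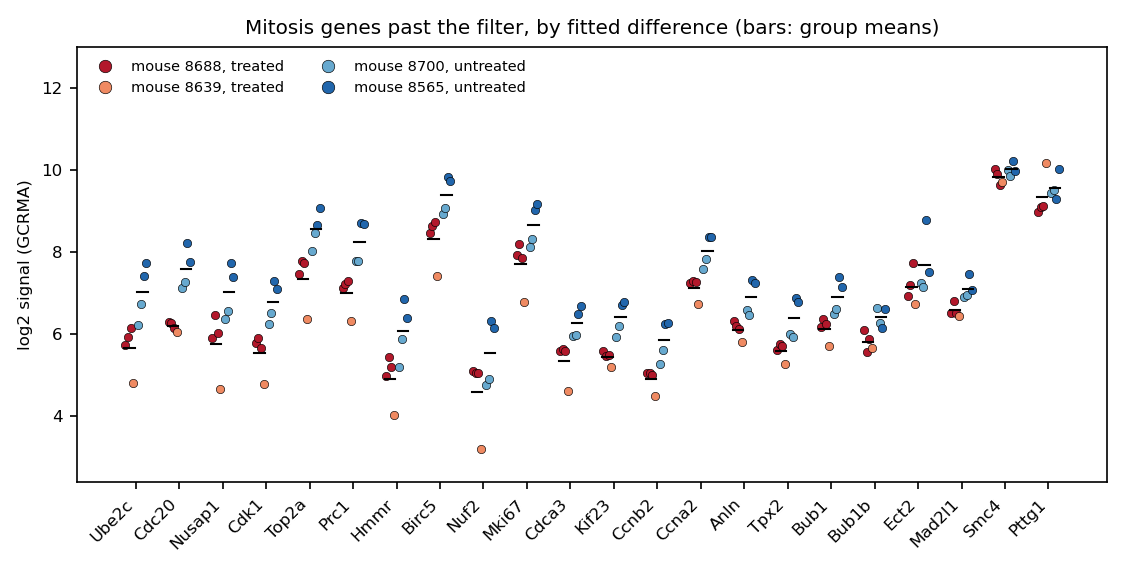
Log2 signal of the 22 mitosis genes past the filter in each grade 2 tumour, ordered by fitted difference, with points coloured by mouse and bars at the group means. The untreated mouse 8565 is the highest and 8639T4 the lowest in most genes, and Smc4 and Pttg1 at the right end show no gap.

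Promoters of mitosis genes are shown because the repressor complexes that act downstream of p21 bind the cell cycle genes homology region, TTTGAA, often beside CCAAT boxes. Sequences were taken from RefSeq, build GRCm38.p6, from 250 bases before to 50 bases after the annotated start. Both motifs were searched on both strands, where they read ATTGG and TTCAAA on the reverse strand. Of 34 genes of the mitosis list that had a promoter in the table, 26 (76.5%) held CCAAT, 26 (76.5%) held TTTGAA and 23 (67.6%) held both. Among the 19 of them past the filter the shares were 68.4%, 68.4% and 63.2%. Over all 27025 genes of the table the shares were 41.1%, 20.2% and 7.97%, and over the 5933 genes that were tested and had a promoter they were 42.2%, 13.9% and 5.38%. The 4 members shown had groups without overlap. Each of them holds TTTGAA, so they are examples of the motif and not a sample of the list. Nor are they the members with the smallest p, since Nusap1 and Birc5 ranked ahead of Prc1 and Cdca3 and are not shown. How often the motif occurs is given only by the shares above. Capitals mark matches of the motifs, which do not overlap each other in these windows. A match is a description of the letters and not a bound site.
Cdc20, chr4:118437294-118437593, minus strand: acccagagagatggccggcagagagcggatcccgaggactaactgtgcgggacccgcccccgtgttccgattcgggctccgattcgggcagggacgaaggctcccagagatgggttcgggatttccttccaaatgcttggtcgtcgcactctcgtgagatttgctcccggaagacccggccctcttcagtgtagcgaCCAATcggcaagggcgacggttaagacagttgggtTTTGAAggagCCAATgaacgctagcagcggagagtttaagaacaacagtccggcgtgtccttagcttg
Anln, chr9:22389157-22389456, minus strand: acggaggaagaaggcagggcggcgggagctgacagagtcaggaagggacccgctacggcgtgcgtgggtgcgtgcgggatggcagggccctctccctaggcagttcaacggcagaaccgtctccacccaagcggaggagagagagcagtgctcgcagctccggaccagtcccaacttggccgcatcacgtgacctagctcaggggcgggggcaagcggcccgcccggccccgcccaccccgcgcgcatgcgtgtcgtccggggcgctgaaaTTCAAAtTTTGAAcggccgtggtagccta
Prc1, chr7:80294201-80294500, plus strand: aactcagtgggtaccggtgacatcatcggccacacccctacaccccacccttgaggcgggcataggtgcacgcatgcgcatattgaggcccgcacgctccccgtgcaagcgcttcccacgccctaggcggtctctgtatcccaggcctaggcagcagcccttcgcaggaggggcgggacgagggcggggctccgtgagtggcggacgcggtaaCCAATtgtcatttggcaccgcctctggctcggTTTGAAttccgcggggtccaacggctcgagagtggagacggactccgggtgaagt
Cdca3, chr6:124829926-124830225, plus strand: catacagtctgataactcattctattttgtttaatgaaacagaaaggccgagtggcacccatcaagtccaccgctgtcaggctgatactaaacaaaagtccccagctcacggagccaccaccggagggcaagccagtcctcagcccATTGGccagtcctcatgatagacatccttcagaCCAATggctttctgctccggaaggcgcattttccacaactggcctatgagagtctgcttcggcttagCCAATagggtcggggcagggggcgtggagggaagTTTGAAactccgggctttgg

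In the Cdc20 window TTTGAA begins 18 bases before the start site, between CCAAT boxes that begin 53 and 8 bases before it. The windows of Prc1 and Cdca3 also hold both motifs, with TTTGAA 5 bases before and 30 bases after the start. That of Anln holds TTTGAA on both strands side by side and no CCAAT. Prc1 has 2 promoters in the table, and the printed one is 1 of them.

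Genes of DNA replication and of the RB and E2F pathway differed less. The 20 replication genes past the filter had a median of -0.20, and none passed. Tk1, the thymidine kinase of the salvage pathway, was at 5.80, 5.95 and 5.92 in 8688, 5.03 in 8639T4, 6.55 and 6.42 in 8700 and 6.58 and 7.06 in 8565, a difference of -0.98 (SE 0.31, adjusted p = 0.446) without overlap. The ribonucleotide reductase gene Rrm2 differed by -0.73 (SE 0.34, adjusted p = 0.711), the DNA ligase gene Lig1 by -0.36 (SE 0.20, adjusted p = 0.782), the maintenance methylation gene Uhrf1 by -0.65 (SE 0.39, adjusted p = 0.796) and the helicase subunit gene Mcm6 by 0.24 (SE 0.29, adjusted p = 0.887). In the 16 genes of RB, E2F and G1 cyclins the median was -0.11. Cdkn2b, the inhibitor p15 of the cyclin D kinases, was at 9.66, 9.24 and 9.06 in 8688, 10.25 in 8639T4, 8.83 and 8.95 in 8700 and 8.91 and 8.81 in 8565, higher in every treated tumour, with a difference of 0.71 (SE 0.25, adjusted p = 0.509). The E2F partner gene Tfdp1 differed by -0.37 (SE 0.13, adjusted p = 0.510) without overlap, the pocket protein gene Rbl2 by 0.56 (SE 0.24, adjusted p = 0.689) and the cyclin D1 gene Ccnd1 by -0.65 (SE 0.25, adjusted p = 0.610).

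Antigen presentation by MHC class II was on the lower side. Of 10 list genes on the array 9 passed the filter, 8 of them below 0 with a median of -0.56, and none passed the test. H2-DMa, which loads peptides onto class II molecules, was at 8.76, 8.88 and 8.55 in 8688, 8.05 in 8639T4, 9.34 and 9.23 in 8700 and 9.04 and 9.70 in 8565. Every treated tumour was lower, and the difference was -0.79 (SE 0.22, adjusted p = 0.278). H2-Eb1, a class II beta chain, was at 11.31, 11.22 and 11.09 in 8688, 11.14 in 8639T4, 11.72 and 11.89 in 8700 and 11.45 and 12.26 in 8565, a difference of -0.61 (SE 0.20, adjusted p = 0.448), again without overlap. Ciita, the master regulator of class II genes, differed by -0.87 (SE 0.36, adjusted p = 0.672), H2-Ab1 by -0.56 (SE 0.23, adjusted p = 0.673), H2-DMb2 by -1.01 (SE 0.46, adjusted p = 0.705) and the invariant chain gene Cd74 by -0.54 (SE 0.30, adjusted p = 0.777). Without 8565T4 the Cd74 difference was -0.31, and with sex as a covariate it was -0.28. The protease gene Ctss was the only member above 0, at 0.07.

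Class I genes had a median of -0.16 over 13 members. The immunoproteasome gene Psmb9 differed by -0.56 (SE 0.26, adjusted p = 0.711) without overlap, and the heavy chain gene H2-K1 by -0.49 (SE 0.23, adjusted p = 0.711). Class II genes are expressed by type 2 cells, macrophages, dendritic cells and B cells alike. Macrophage markers had a median of -0.11, with the receptor gene Csf1r at -0.51 (SE 0.27, adjusted p = 0.761) and the scavenger receptor gene Marco at 0.67 (SE 0.35, adjusted p = 0.760). Dendritic cell markers had a median of -0.10, with the integrin gene Itgae at -1.20 (SE 0.38, adjusted p = 0.446), and B and plasma cell markers one of -0.28. The part of these cell types in the class II values was not tested.

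Fibroblast and matrix genes were lower in treated tumours in most members and none passed. Of 27 list genes on the array 25 passed the filter, 19 below 0 and 6 above, where 53.9% of all genes tested were above 0, with a median of -0.54. In 7 of them treated tumours lay wholly below untreated ones, as did 4.04% of all genes tested. Eln, the gene of elastin, was at 10.85, 10.52 and 10.79 in 8688, 10.79 in 8639T4, 11.20 and 11.19 in 8700 and 11.25 and 11.84 in 8565, a difference of -0.57 (SE 0.19, adjusted p = 0.446). The collagen genes Col14a1 with -1.06 (SE 0.37, adjusted p = 0.501), Col1a1 with -0.54 (SE 0.20, adjusted p = 0.557) and Col5a1 with -0.56 (SE 0.23, adjusted p = 0.659) also had no overlap. The proteoglycan gene Dcn was the lowest of the list, at -1.12 (SE 0.47, adjusted p = 0.673), and Col6a2 the highest, at 0.28 (SE 0.33, adjusted p = 0.886). The mean of the list per tumour was 9.53, 9.46 and 9.50 in 8688, 9.60 in 8639T4, 9.72 and 9.91 in 8700 and 9.85 and 10.42 in 8565. The treated tumours lay within a narrow range and 8565T4 stood above the other untreated tumours.

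The epithelial to mesenchymal genes had 1 of 14 members above 0 and a median of -0.30. Tgfb2, a growth factor of the TGF-beta family, was at 7.62, 8.07 and 8.06 in 8688, 7.63 in 8639T4, 8.52 and 8.77 in 8700 and 8.44 and 8.66 in 8565, all treated tumours being lower, with a difference of -0.71 (SE 0.23, adjusted p = 0.446). The receptor kinase gene Axl differed by -0.65 (SE 0.21, adjusted p = 0.446), Tgfb3 by -0.86 (SE 0.32, adjusted p = 0.549) and the calcium-binding protein gene S100a4 by -0.93 (SE 0.35, adjusted p = 0.547), also without overlap. The transcription factor genes Snai1, Snai2, Twist1 and Zeb2 lay below the filter. Endothelial markers, as a measure of other stroma, had a median of -0.23, with Vwf at -0.63 (SE 0.33, adjusted p = 0.760) and Egfl7 at -0.44 (SE 0.22, adjusted p = 0.741). Junction and keratin genes of epithelium had a median of 0.04, with the desmosome gene Dsp at 0.31 (SE 0.22, adjusted p = 0.832) and Epcam at -0.28 (SE 0.15, adjusted p = 0.765). The part of stroma in these values was not tested.

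Alveolar type 2 genes lay slightly lower in treated tumours in nearly all members, and none passed. The 20 type 2 genes past the filter had a median of -0.25, with 19 below 0 and 1 above 0. Of all genes tested, 53.9% were above 0. Sftpc was at 12.75, 12.70 and 12.64 in 8688, 13.25 in 8639T4, 13.26 and 13.23 in 8700 and 12.68 and 13.41 in 8565, with the 3 tumours of mouse 8688 and 8565T3 below the other 4, for a difference of -0.25 (SE 0.25, adjusted p = 0.868). When sex was added as a covariate the difference was 0.11 and the median of the list 0.06. The lysozyme genes Lyz1 and Lyz2 differed by -0.36 (SE 0.17, adjusted p = 0.728) and -0.41 (SE 0.23, adjusted p = 0.782). Il33, an alarmin of type 2 cells, was the member above 0. It was at 12.08, 12.49 and 12.03 in 8688, 12.06 in 8639T4, 11.68 and 11.03 in 8700 and 11.72 and 11.15 in 8565, higher in every treated tumour, with a difference of 0.76 (SE 0.23, adjusted p = 0.438).

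Type 1 genes had a median of -0.01 over 12 members. Lmo7 was at 12.05, 11.94 and 12.16 in 8688, 11.80 in 8639T4, 11.52 and 11.49 in 8700 and 11.65 and 11.002 in 8565, higher in all treated tumours, a difference of 0.51 (SE 0.20, adjusted p = 0.570). Rtkn2 differed by 0.58 (SE 0.26, adjusted p = 0.695) and the water channel gene Aqp5 by -0.43 (SE 0.22, adjusted p = 0.741). Of the 7 club and ciliated genes past the filter 6 were below 0, with a median of -0.48, which stayed below 0 in all 22 alternatives (-1.16 to -0.20), and none passed the test. Tppp3, a tubulin-binding protein, differed by -0.90 (SE 0.43, adjusted p = 0.711) with overlap of the groups. These genes also varied within both groups. Scgb3a2, a secretoglobin of club cells, was at 6.93, 9.94 and 3.29 in 8688, 9.09 in 8639T4, 6.76 and 11.03 in 8700 and 10.65 and 11.28 in 8565. The tumours 8688T9, 8639T4, 8700T3, 8565T3 and 8565T4 were high and the other 3 low, for a difference of -2.34 (SE 1.77, adjusted p = 0.840).

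Genes of gut, stomach and embryonic endoderm, which mark the loss of lung identity in advanced tumours, were mostly at the floor in these adenomas. Of 20 on the array 14 lay below the array median on all 8 arrays. Fabp1, a fatty acid binding protein of liver and gut, was at 9.19, 7.40 and 9.53 in 8688, 7.35 in 8639T4, 10.13 and 10.36 in 8700 and 10.35 and 10.30 in 8565. All treated tumours were lower, 8688T9 and 8639T4 most of all, and the difference was -2.01 (SE 0.63, adjusted p = 0.446). Cldn2 differed by -0.44 (SE 0.30, adjusted p = 0.831) and Ctse by -1.06 (SE 0.76, adjusted p = 0.834), and Afp, given above, lay in the opposite direction. The mucin gene Muc5b lay below the array median on all 8 arrays, at 3.42 to 3.71 in treated and 3.30 to 4.17 in untreated tumours, with a difference of -0.15 (SE 0.47, adjusted p = 0.963).

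Immediate early genes, which growth factors switch on within minutes, had 2 of 14 members above 0 and a median of -0.42. Nr4a1, an orphan nuclear receptor, was at 5.94, 5.38 and 6.37 in the tumours of mouse 8688, 7.29 in 8639T4, 7.84 and 8.50 in the 8700 tumours and 9.06 and 9.14 in the 8565 tumours. Every treated tumour was lower and 8639T4 was the closest to the untreated range, with a difference of -2.10 (SE 0.52, adjusted p = 0.200). Fos, a subunit of AP-1, was at 8.74, 8.996 and 8.72 in 8688, 9.72 in 8639T4, 9.77 and 10.09 in 8700 and 9.90 and 10.55 in 8565, a difference of -0.90 (SE 0.29, adjusted p = 0.446), and Egr1 differed by -0.75 (SE 0.32, adjusted p = 0.684), both without overlap. The matricellular gene Ccn1 differed by -1.06 (SE 0.41, adjusted p = 0.592) and Atf3, at the top of the list, by 0.68 (SE 0.34, adjusted p = 0.741). With sex as a covariate the median of the list was 0.01. Outputs of MAPK signalling had a median of 0.04, with Etv5 at -0.47 (SE 0.46, adjusted p = 0.860) and Epha2 at 0.30 (SE 0.19, adjusted p = 0.828).

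Hypoxia and glycolysis genes lay slightly higher, with 15 of 17 members above 0 beside 53.9% of all genes, and a median of 0.22. Pgk1, a glycolytic kinase, was at 11.12, 11.40 and 11.12 in 8688, 11.16 in 8639T4, 10.52 and 10.53 in 8700 and 11.14 and 10.31 in 8565, where 8565T3 lay with the treated tumours, for a difference of 0.55 (SE 0.22, adjusted p = 0.658). The collagen prolyl hydroxylase gene P4ha2 differed by 0.55 (SE 0.31, adjusted p = 0.782), the angiogenic factor gene Vegfa by 0.44 (SE 0.22, adjusted p = 0.741) and the glucose transporter gene Slc2a1 by 0.33 (SE 0.17, adjusted p = 0.761). Interferon response genes had a median of 0.12, which became -0.24 with sex as a covariate and -0.02 without mouse 8565. Rsad2, the antiviral protein viperin, was at 8.62, 8.48 and 8.78 in 8688, 8.33 in 8639T4, 7.999 and 7.86 in 8700 and 6.60 and 7.72 in 8565, higher in every treated tumour, with a difference of 1.16 (SE 0.48, adjusted p = 0.659), and Ifih1 and Ifit2 differed by 0.30 (SE 0.15, adjusted p = 0.750) and 0.75 (SE 0.33, adjusted p = 0.695). At the other end stood the chemokine gene Cxcl9 with -1.16 (SE 0.75, adjusted p = 0.820).

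Senescence and secreted factor genes had a median of -0.15. Igfbp7 differed by -0.48 (SE 0.22, adjusted p = 0.704), the matrix protease inhibitor gene Timp2 by -0.47 (SE 0.22, adjusted p = 0.711), the neutrophil chemokine gene Cxcl1 by 1.13 (SE 1.19, adjusted p = 0.875) and the stromelysin gene Mmp3 by -1.08 (SE 1.04, adjusted p = 0.857). Oxidative stress and drug metabolism genes had a median of 0.16, with Cyp2b10 at 0.80 (SE 0.67, adjusted p = 0.849) without overlap and Cyp1a1 at -1.12 (SE 0.67, adjusted p = 0.796). Sterol synthesis genes had a median of 0.10, with Lss at 0.61 (SE 0.23, adjusted p = 0.566) and Hmgcs1 at -0.39 (SE 0.22, adjusted p = 0.782). T and NK cell markers had a median of -0.29, with the receptor gene Klrd1 at -0.96 (SE 0.49, adjusted p = 0.741). The neutrophil genes S100a8 and S100a9 differed by 0.80 (SE 0.55, adjusted p = 0.830) and 0.55 (SE 0.49, adjusted p = 0.851), with 8.30 and 8.29 for S100a8 in the 8565 tumours against 10.08 and 10.02 in the 8700 tumours.

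**Figure D4:**
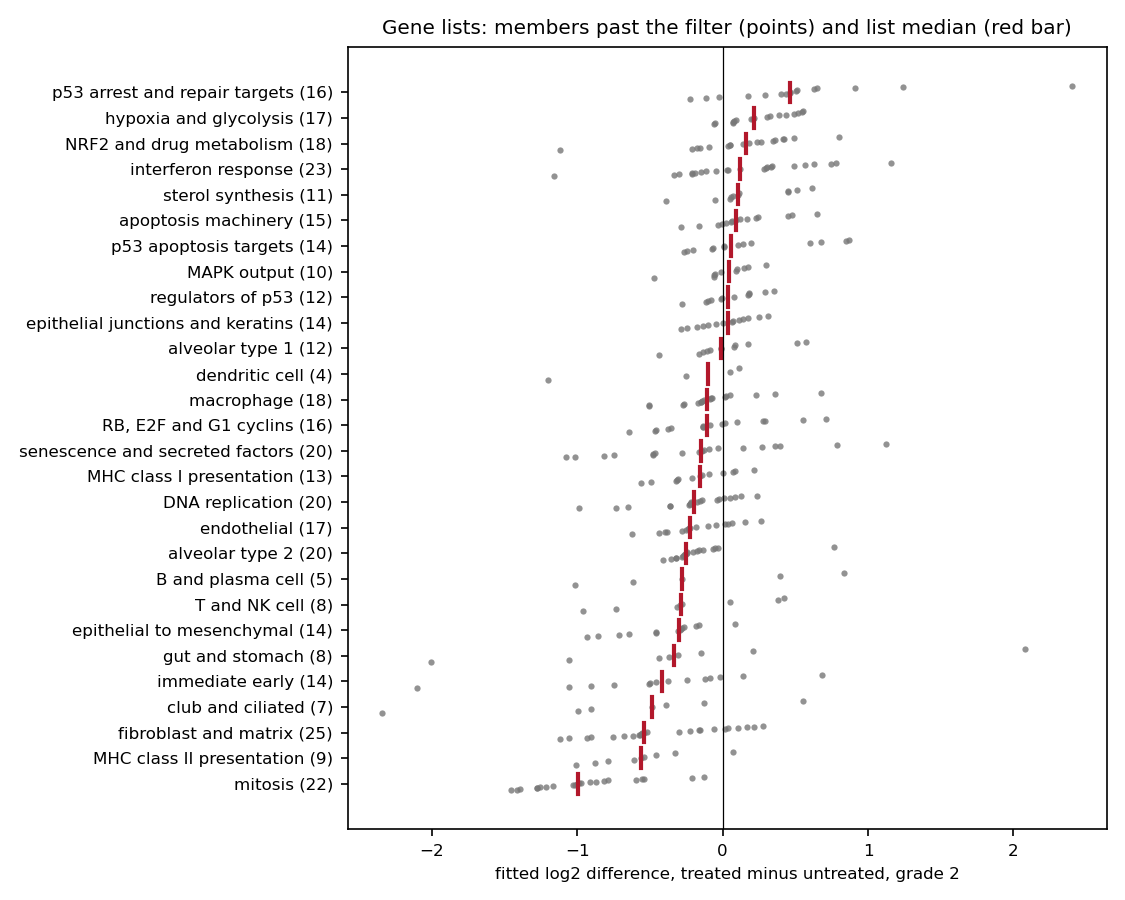
Fitted log2 difference between treated and untreated grade 2 tumours for members past the filter (grey points) and the median (red bars) of each list with at least 3 such members, the sex check list left out, with the number of members in brackets. Among the lists drawn, mitosis lies furthest to the left, with a median of -0.99 and every member below 0, and the p53 arrest and repair list lies furthest to the right at 0.47.

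**Figure D5:**
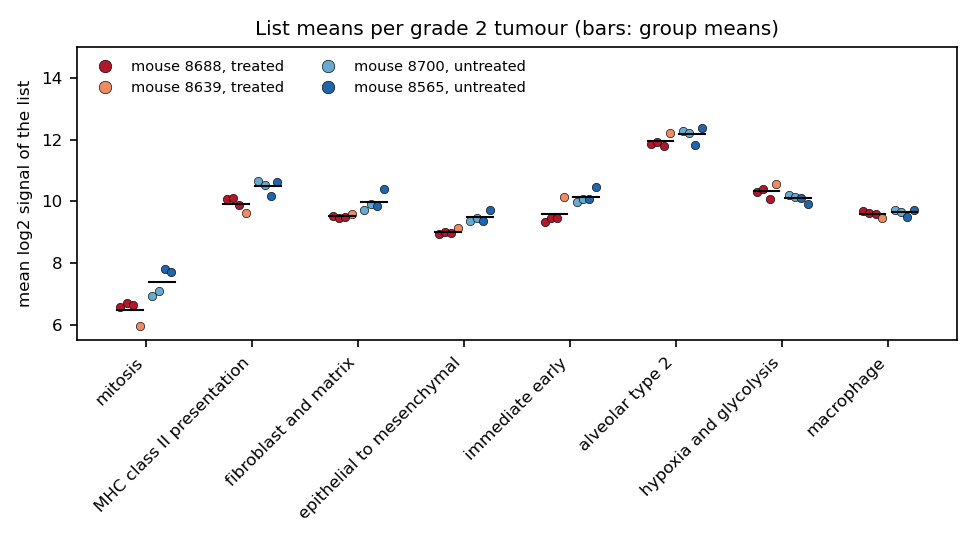
Mean log2 signal over the members past the filter for 8 lists in each grade 2 tumour, with points coloured by mouse and bars at the group means. The groups do not overlap for mitosis, MHC class II, fibroblast and epithelial to mesenchymal genes, and they overlap for the alveolar type 2, hypoxia, macrophage and immediate early genes.

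The effect of restoration in grade 2 tumours was then set against that in grade 3 tumours, which were 6 treated and 4 untreated. Here a single animal, 8688, a female, supplied the whole treated side. The untreated side was supplied by males only, 8584, 8565 and 8629. Differences in grade 3 therefore cannot be separated from mouse or sex. The interaction is built on these differences and shares this limit. A test of the difference between the effects, as an interaction term in the same limma fit, called 0 of 7300 genes (0.0%), with 665 at an unadjusted p under 0.05 and a smallest adjusted p of 0.127. Array weights gave 124 and sex as a covariate 1, and without mouse 8565 it was 3. The 5 genes called in grade 2 had differences of the same sign in grade 3: -3.34 for Gbp2b, -3.09 for Hbb-b2, -0.62 for Il1r1, 0.67 for Itgb3bp and 0.55 for Eif4ebp1. Both grades share mice 8688 and 8565, so these values are not independent of each other.

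The 5 genes with the smallest p for the interaction differed in grade 3 more than in grade 2, apart from Afp. Muc5b had -0.15 in grade 2 and -3.06 in grade 3 (difference 2.92, limma adjusted p = 0.127). It exceeded the array median on 4 of 18 arrays and passed the filter through the untreated grade 3 tumours alone. Their mean was 6.93, beside 3.74 in untreated grade 2 tumours. At that level a fall could hardly show, so the difference cannot be read as a weaker effect in grade 2. Lgals4, a galectin of the gut, had -0.37 and -1.91 (difference 1.54, adjusted p = 0.315). Rtkn2, of type 1 cells, had 0.58 and 1.95 (difference -1.37, adjusted p = 0.315). The matrix gene Fbln1 had -0.55 and 1.51 (difference -2.06, adjusted p = 0.315). Afp had 2.08 and -0.61 (difference 2.69, adjusted p = 0.127). In Lgals4, Fbln1 and Afp it was mainly the untreated means that differed between grades. Lgals4 was at 6.91 in untreated grade 2 and 8.62 in untreated grade 3 tumours, beside 6.53 and 6.60 in treated ones. Fbln1 was at 7.27 and 5.18 untreated and 6.57 and 6.69 treated. Afp was at 6.32 and 8.59 untreated and 8.45 and 8.23 treated. The part of the untreated level in these differences was not tested. For Cdkn1a the effects were 1.24 and 1.53 (difference -0.29, adjusted p = 0.864). The median of the mitosis genes was -0.99 in grade 2 and -1.37 in grade 3, with 1 of 22 genes at an unadjusted p under 0.05 for the interaction. Type 2 genes had a median of -0.25 in grade 2 and 0.25 in grade 3, and class II genes -0.56 and -0.09. No member of these lists passed the test of the interaction.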

How the data were processed

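RNA from 18 microdissected tumours (100 ng total RNA each) was amplified and biotin-labelled for arrays of 1 colour, per the labels. Each probe set has a log2 signal as deposited; the submitters' processing notes name GCRMA 2.20.0 and R 2.11.0. This method subtracts background, quantile normalises and summarises probes, which removes any difference in total RNA. The sources used here do not give scan dates, batches or other filters. The tumour was the replicate.

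Of 22690 probe sets, 20380 had 1 gene symbol, and each of 12393 genes was read from the probe set that was highest on average. Tested were the 7300 genes that exceeded the array median on 4 or more of the 18 arrays. With limma 3.58.1 (R 4.3.3), means of the 4 groups were fitted over all 18 tumours, with the mouse as a random block (correlation 0.259, 14 residual and 3.8 prior degrees of freedom), with Benjamini-Hochberg adjustment over all genes tested. "Adjusted p" means this value throughout, and SE is that of the fitted difference. Fitted differences weight tumours by the correlation within a mouse and so differ slightly from plain differences of means. The steps were tested on simulated data.

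Genes were named by rule: 12 set genes where the array had them, the members of each list with the smallest p (up to 8 in the p53 and mitosis lists and 4 in the others) and its extremes, up to 10 genes a direction that passed or had the smallest p without overlap, and the 5 with the smallest p for the interaction. Genes outside it are Alas2, Gbp2, Gbp3, Hba-a1, Nkx2-1, Smc4 and Zmat3, with the genes named as below the filter. The comparison, lists and rule were chosen with earlier results of these data known. Alternatives changed the animal term, covariate, normalisation, filter, probe sets, spread model, weights, tumours and mice.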

Additional observations from a re-analysis of the deposited data

Results flagged for a closer look

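In groups of 4 tumours the highest or lowest value was examined by Dixon's criterion for its gap to the next. Chance gives such a gap in about 1 in 20 groups.

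Tumour 8639T4 stood apart from the 3 other treated grade 2 tumours in Xist, at 4.33, in Eif2s3y, at 11.04, and in the mean of the sex check genes, at 7.76. It is the only treated tumour of a male mouse. The same tumour had the lowest mean of the mitosis genes in its group, at 5.96. Among untreated grade 2 tumours, 8565T3 had the lowest mean of the interferon response genes, at 7.67.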

How the results depend on the processing

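The 5 genes that passed for treatment in grade 2 became 37 with no animal term, 20 with only the 8 grade 2 tumours, 10 with no filter, 9 with a log2 signal of at least 5 on 4 arrays and 2 with sex as a covariate. With 1 value per mouse and group 0 genes passed in limma, with 277 at an unadjusted p below 0.05, and without mouse 8700 or mouse 8565 0 passed, with 410 and 219. Array weights gave 1975, with weights from 0.224 to 6.34 and a correlation between tumours of a mouse of 0.0033. Leaving out 1 tumour at a time gave 2 to 13. The count stayed at 5 after further quantile normalisation, after median centring and with a trended and robust spread. The difference between grades, with 0 genes and 665 at an unadjusted p below 0.05, gave 1 with sex, 124 with array weights, 3 without mouse 8565 and 0 to 1 leaving out 1 tumour. Mdm2 turned sign to 0.013 with sex, 0.023 with median centring and 0.158 without mouse 8700, and ran from -0.157 to 0.0800 leaving out 1 tumour at a time. Sftpc turned to 0.112 and Xist to -1.47 with sex, and Muc5b to 0.105 without mouse 8565. Beyond the alternatives whose construction changes the genes, tumours or mice entered, the cause of these changes was not tested. The medians of the mitosis, DNA replication, MHC class II, fibroblast and matrix, epithelial to mesenchymal, p53 arrest and repair, and hypoxia and glycolysis lists kept their sign in all 22 alternatives. So did those of the RB, E2F and G1 cyclins, MHC class I, club and ciliated, T and NK cell and apoptosis machinery lists. The NRF2 and drug metabolism and the sterol synthesis lists also kept theirs, so a stable sign was not particular to any of these lists. No paired analysis was possible because treated and untreated tumours never came from the same mouse, and a fit with mouse as a fixed term was not run for that reason. Signal over background limits genes whose group means lie under the array median.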
